A study of Mus musculus with 2 samples.

Results

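The 9 genes described here write, remove and read 5-methylcytosine in DNA. They were chosen by name, with earlier results of these data known. Every probe set whose only annotated gene symbol was one of the names was taken. This gave 26 of the 34945 single-symbol probe sets on the array and 9 of 18193 named genes. The genes were the DNA methyltransferases Dnmt1, Dnmt3a and Dnmt3b, the dioxygenases Tet1, Tet2 and Tet3, and the methyl-DNA binding proteins Uhrf2, Mbd1 and Mbd2. Transcript levels were measured on 2 Affymetrix arrays of mouse cerebral cortex. The KO array received RNA pooled from 3 male mice aged 4 weeks. Its sample title says KO, and the series describes the knockout as one of Gnmt. The wild-type (WT) array received RNA pooled from 3 male mice of the same age, and the strain entry of both was 129/B6. Gnmt encodes glycine N-methyltransferase, which uses S-adenosylmethionine, the methyl donor of the DNA methyltransferases, to methylate glycine. The labels do not say how the Gnmt allele was made or which part of the gene it lacks.

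With 1 array per genotype no difference could be tested, and each value below describes 2 pools of RNA. The genotype entry of the KO-titled sample reads wild-type, so the title alone put it in the KO group. Gnmt itself could not check the titles, since its single probe set gave 21.5 units in the KO pool and 10 units in the WT pool. Both lay under the floor of 64.2 units, the 40th percentile of all signals, below which a probe set was not counted as measured. Signals of probe sets other than controls reached that floor for 63.1% on the KO array and 56.9% on the WT array. Ratios are log2 of KO over WT signal, centred on the median of all measured probe sets, and a gene was represented by its brightest probe set. From pairs of probe sets for 1 gene, the error SD of a single probe set was 0.58 on the log2 scale, or 1.49-fold. The spread of the difference between a pair is larger than this. The error SD does not include the spread between mice. The cortical neuron genes Snap25 and Slc17a7 reached the floor in each pool and had log2 ratios of -0.11 and 0.20. They belong to a list of 8 neuron markers, of which 7 lay within 1.5-fold by brightest probe set and Nefl was lower, at -1.78. The pituitary hormone gene Gh set the pools apart more than any of the 9 genes did: it had 200 units in the KO pool and 23223 units in the WT pool. In bulk tissue, fewer cells of a type and less RNA per cell cannot be told apart.

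DNA methylation in mammals is placed mainly on cytosines followed by guanine. Dnmt3a and Dnmt3b set new marks, and Dnmt1 copies marks onto the new strand after replication, guided by Uhrf1, the paralog of Uhrf2. Tet enzymes oxidise 5-methylcytosine to 5-hydroxymethylcytosine and further products that base excision repair can replace with cytosine, and 5-hydroxymethylcytosine is abundant in brain. Proteins with a methyl-CpG binding domain, such as Mbd1 and Mbd2, bind methylated DNA and bring in histone-modifying corepressors. In postnatal cortex, neurons gain methylation by Dnmt3a in the first weeks of life.

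By brightest probe sets, 4 of the 9 genes were at least 1.5-fold higher in the KO pool: Dnmt3a, Dnmt3b, Tet1 and Tet2. Among all 12244 measured genes 12.5% were that much higher. Tet3 was the 1 gene at least 1.5-fold lower, against 18.2% of all measured genes. Since the genes were chosen with earlier results known, the counts set beside these shares are a description only. Dnmt1, Uhrf2, Mbd1 and Mbd2 lay within 1.5-fold, all with ratios below 0. The median log2 ratio over the 9 genes was -0.13, beside -0.06 over all measured genes. Its sign depended on the probe sets used: it was 0.34 when the median of its measured probe sets stood for each gene, 0.63 without suffixed probe sets, 0.80 by second brightest probe sets and 0.04 with centring by type of target sequence. Over probe sets, 16 of the 26 were measured on both arrays, of which 8 were at least 1.5-fold higher and 3 lower, against 16.5% and 18.1% of all 20967 measured probe sets with 1 gene. A further 6 reached the floor in the KO pool alone, 0 in the WT pool alone and 4 in neither pool. Over all non-control probe sets, 63.1% reached the floor on the KO array and 56.9% on the WT array. Over the whole array, more probe sets therefore reached the floor in the KO pool alone than in the WT pool alone, as among these genes. Of all 45037 non-control probe sets, 23928 reached it on both arrays. The shares that reached it in 1 pool alone were not calculated, so the size of the excess was not compared.

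**Figure D1:**
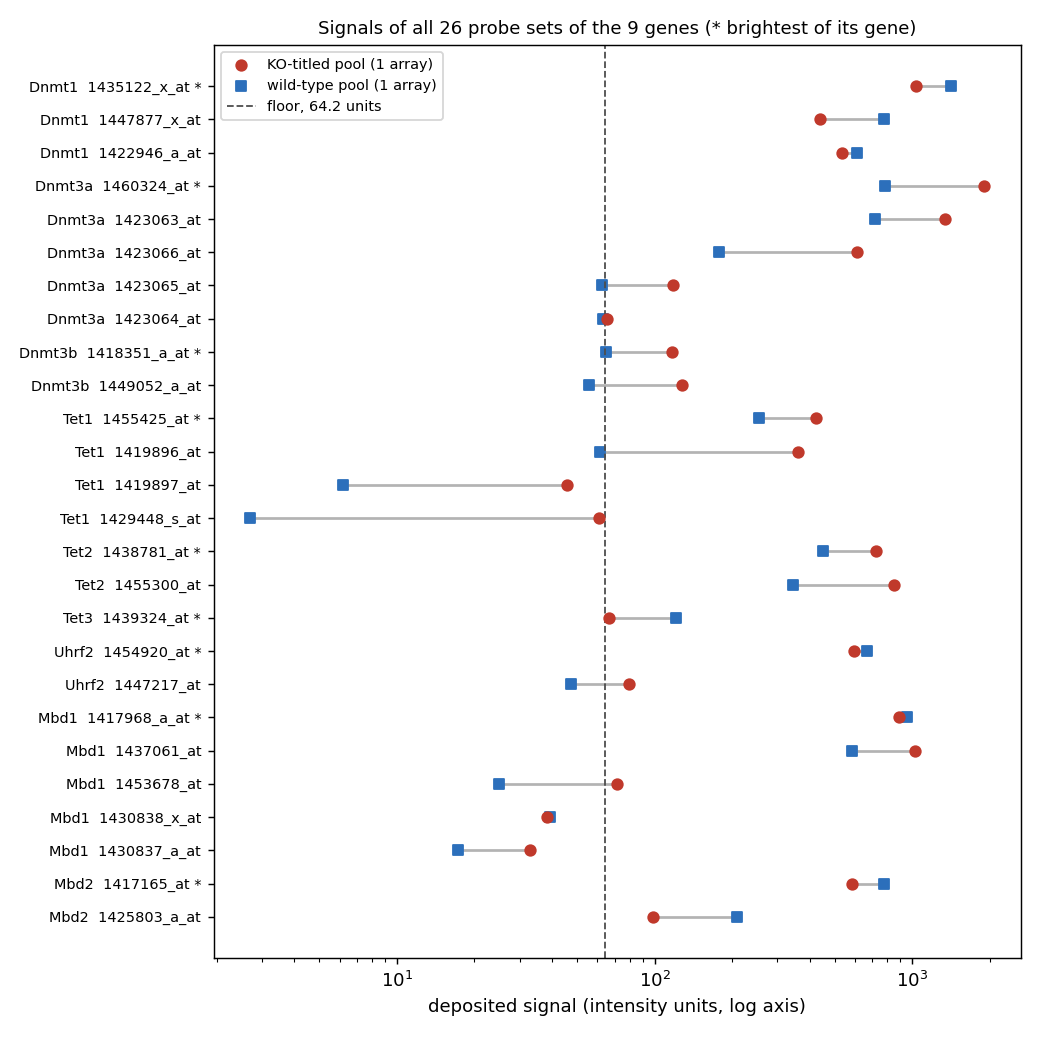
Deposited signal (intensity units, log axis) of the 26 probe sets on the KO-titled array (circles) and the wild-type array (squares), with the floor of 64.2 units dashed and the brightest probe set of each gene starred. The circle lies right of the square for every Dnmt3a, Dnmt3b, Tet1 and Tet2 probe set, and left of it for every Dnmt1, Tet3 and Mbd2 probe set.

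Among the writers, Dnmt3a had the highest ratio of the 9 genes. Its brightest probe set, 1460324_at, had 1899.2 units in the KO pool and 785.4 units in the WT pool, a log2 ratio of 1.26 or 2.40-fold. That value is 2.19 times the probe set error SD and ranked 208 from the top of 12244 genes. A ratio of at least 2-fold was reached by 3.47% of all measured genes, and Dnmt3a was the only 1 of the 9 genes among them.

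The other Dnmt3a probe sets were higher in the KO pool as well, though not all by a similar size. Probe set 1423066_at had 609.5 units in the KO pool and 178.7 units in the WT pool, and a log2 ratio of 1.76. Probe set 1423063_at had 1347.1 units in the KO pool and 716.3 units in the WT pool, and a log2 ratio of 0.90. The remaining pair sat at the floor in the WT pool. Probe set 1423065_at had 118.4 units in the KO pool and 62.5 units in the WT pool, at least 1.83-fold higher. Probe set 1423064_at gave 65.4 units in the KO pool and 63.1 units in the WT pool, almost the same signal at the floor. All 5 are annotated to a single expressed sequence tag (EST), so they share their source sequence and are not independent readings of the gene.

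Dnmt3b, the second de novo methyltransferase, was dim in both pools. Probe set 1418351_a_at had 116.5 units in the KO pool and 64.9 units in the WT pool, which is just above the floor, for a log2 ratio of 0.83. Probe set 1449052_a_at had 128.1 units in the KO pool and 55.9 units in the WT pool, at least 1.98-fold higher. Both probe sets are annotated to a single RefSeq mRNA, so they are not independent readings. Among the dimmest measured probe sets, with mean signals from 64.8 to 158.5 units, the log2 ratios had an SD of 0.70 and 23.5% were at least 1.5-fold higher. With quantile normalization the Dnmt3b ratio was 0.39, within 1.5-fold.

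Dnmt1, the maintenance methyltransferase, was lower in the KO pool by all 3 of its probe sets. Its brightest, 1435122_x_at, had 1034.4 units in the KO pool and 1419 units in the WT pool, a log2 ratio of -0.47 or 1.38-fold lower, which is under 1 SD of the probe set error. Probe set 1447877_x_at had 437.5 units in the KO pool and 777.7 units in the WT pool, with a ratio of -0.84. Probe set 1422946_a_at had 532.6 units in the KO pool and 609.7 units in the WT pool, with a ratio of -0.21. All 3 carry a suffix: _a_at sets match several transcripts of a gene and _x_at sets hold probes that can bind other transcripts too. No unsuffixed Dnmt1 probe set was among those analysed here.

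**Figure D2:**
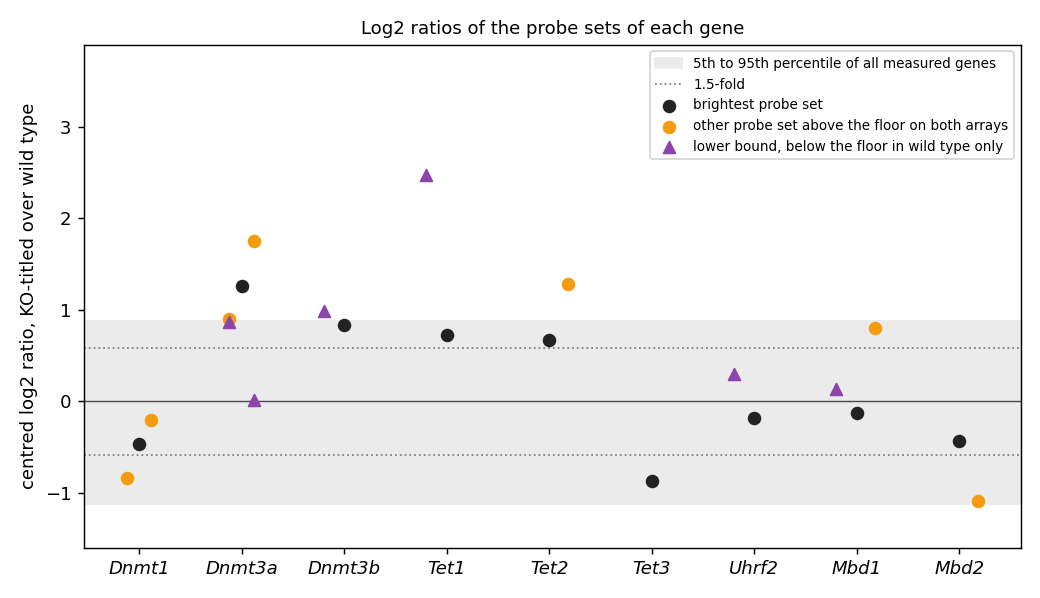
Centred log2 ratio of KO-titled over wild type for each gene (black, brightest probe set; orange, other measured probe sets; triangles, lower bounds where only the wild-type signal was under the floor), with the 5th to 95th percentile of all measured genes, -1.12 to 0.88, shaded and 1.5-fold dotted. Of the brightest probe sets only that of Dnmt3a, at 1.26, lies outside the shaded range.

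The Tet genes were split, with Tet1 and Tet2 higher and Tet3 lower in the KO pool. Tet1 had 424 units in the KO pool and 253.6 units in the WT pool by its brightest probe set, 1455425_at, a log2 ratio of 0.73 or 1.66-fold. All 4 Tet1 probe sets had the higher signal in the KO pool, but only 1455425_at was measured on both arrays. Probe set 1419896_at, which reached the floor in the KO pool alone, had 359.1 units in the KO pool and 61.7 units in the WT pool, at least 5.55-fold higher. The last pair gave 45.8 and 60.7 units in the KO pool and 6.2 and 2.7 units in the WT pool, under the floor throughout, so no ratio is given for them. The first of this pair is annotated to the same EST as 1419896_at, so those 2 are not independent readings. With quantile normalization the Tet1 ratio was 0.58, just within 1.5-fold.

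Tet2 was at least 1.5-fold higher by both of its probe sets. Probe set 1438781_at had 723.2 units in the KO pool and 451.3 units in the WT pool, a log2 ratio of 0.67 or 1.59-fold. Probe set 1455300_at, nearly as bright, had 850.7 units in the KO pool and 346 units in the WT pool, and its ratio was 1.29. The Tet2 probe sets are annotated to different ESTs. Tet2 and Tet1 ranked 1208 and 1013 from the top of all measured genes, so about 9.87% and 8.27% of genes had a ratio as high or higher. Without a floor the centring shifted and the Tet2 ratio was 0.56, just within 1.5-fold.

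Tet3 rested on 1 dim probe set. Probe set 1439324_at had 66.7 units in the KO pool, just above the floor, and 121.1 units in the WT pool. Its log2 ratio of -0.87, or 1.83-fold lower, was the lowest among the 9 genes, and 9.16% of measured genes had a lower one. Among the measured probe sets of like signal, from 64.8 to 158.5 units, 13.8% were at least 1.5-fold lower.

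The start regions of Dnmt3a, Tet1, Tet2 and Tet3 are shown because CpG dinucleotides, the sites that these enzymes act on, are themselves dense there. Each line gives the 250 bases before the annotated transcription start, 5′ to 3′ on the gene's strand, from RefSeq on GRCm38.p6, with every CpG in capitals. Dnmt3a lies at chr12:3806730-3806979 (plus strand), Tet1 at chr10:62887325-62887574 (minus), Tet2 at chr3:133544391-133544640 (minus) and Tet3 at chr6:83441679-83441928 (minus). Where a gene had several starts in the table, the most upstream was taken.
Dnmt3a: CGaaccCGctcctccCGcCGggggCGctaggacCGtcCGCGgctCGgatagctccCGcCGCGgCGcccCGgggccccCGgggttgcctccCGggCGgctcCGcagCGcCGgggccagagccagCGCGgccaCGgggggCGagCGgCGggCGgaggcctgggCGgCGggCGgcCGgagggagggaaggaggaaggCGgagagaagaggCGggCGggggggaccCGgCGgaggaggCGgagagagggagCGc
Tet1: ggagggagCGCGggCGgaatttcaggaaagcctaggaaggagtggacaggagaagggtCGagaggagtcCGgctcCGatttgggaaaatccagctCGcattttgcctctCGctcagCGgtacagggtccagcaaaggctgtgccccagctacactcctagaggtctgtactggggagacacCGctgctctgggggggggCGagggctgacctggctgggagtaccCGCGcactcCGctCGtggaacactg
Tet2: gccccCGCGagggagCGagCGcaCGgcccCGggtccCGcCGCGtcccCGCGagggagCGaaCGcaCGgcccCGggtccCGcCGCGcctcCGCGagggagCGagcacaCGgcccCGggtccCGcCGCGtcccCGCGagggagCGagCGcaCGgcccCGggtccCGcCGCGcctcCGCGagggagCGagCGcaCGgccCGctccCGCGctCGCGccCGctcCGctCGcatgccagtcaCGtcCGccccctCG
Tet3: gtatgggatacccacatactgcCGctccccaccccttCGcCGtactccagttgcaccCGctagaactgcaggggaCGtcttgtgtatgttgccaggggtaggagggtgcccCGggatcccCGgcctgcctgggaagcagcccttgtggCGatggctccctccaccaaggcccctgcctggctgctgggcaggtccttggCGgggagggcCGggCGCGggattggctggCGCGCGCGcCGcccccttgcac

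These stretches held 38 CpG in Dnmt3a, 15 in Tet1, 51 in Tet2 and 17 in Tet3. Over the full windows, which add 50 bases after the start, the counts were 46, 17, 57 and 22. The median of all 32851 such mouse windows was 7, and the 4 windows exceeded 98.4%, 68.6%, 99.8% and 76.9% of them. The Tet2 stretch is built of a repeat that is visible in the line above, since it matched itself at 77.9% of positions when moved by 42 bases. The GC box GGGCGG, searched on both strands, occurred 6 times in the Dnmt3a window, 1 time in Tet1, 1 time in Tet2 and 2 times in Tet3, and 35.7% of all windows held at least 1. The E-box CACGTG, the cyclic AMP element TGACGTCA and the TATAAA box were in none of these 4 windows, and in 7.15%, 1.79% and 13.6% of all windows. Dense CpG was not common to all members: the most upstream window of Dnmt1, not printed, held 2 CpG, more than 14.1% of all windows. The windows at its other listed starts held 12 and 33, that of Dnmt3b 30 and that of Uhrf2 28. The CpG counts are a description of the windows, and the methylation of these regions was not measured in the data used here.

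The readers Uhrf2, Mbd1 and Mbd2 lay within 1.5-fold by their brightest probe sets. Uhrf2, a ubiquitin ligase with a domain that binds modified cytosine, had 596.6 units in the KO pool and 669.3 units in the WT pool by 1454920_at, a log2 ratio of -0.18. Its other probe set, 1447217_at, had 79.8 units in the KO pool and 47.6 units in the WT pool, at least 1.23-fold higher. The pools therefore differed little for Uhrf2 by the brighter probe set, and the dim one pointed the other way.

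Mbd1, which binds methylated and, through its CXXC fingers, unmethylated CpG, gave different answers by probe set. Its brightest, 1417968_a_at, had 886.6 units in the KO pool and 959.3 units in the WT pool, with a log2 ratio of -0.13. The next, 1437061_at, was almost as bright and had 1025.3 units in the KO pool and 582.3 units in the WT pool, with a ratio of 0.80. These ratios lie 0.93 apart, so no single direction can be given for Mbd1. Probe set 1453678_at had 71.2 units in the KO pool and 24.9 units in the WT pool, a bound hardly above 1, and the other 2 were under the floor in both pools.

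Mbd2, the methyl-CpG binding subunit of a nucleosome remodelling and deacetylase complex, was lower in the KO pool by both probe sets. Probe set 1417165_at had 584 units in the KO pool and 780.5 units in the WT pool, a log2 ratio of -0.43 or 1.35-fold lower. The dimmer 1425803_a_at had 98.4 units in the KO pool and 208.2 units in the WT pool, and a ratio of -1.09 or 2.13-fold lower. Only the second of these was past 1.5-fold.

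The 16 measured probe sets are annotated to different kinds of sequence. Of the 9 annotated to an EST, 7 were at least 1.5-fold higher in the KO pool and 1 was lower, while of the 4 annotated to a RefSeq mRNA 1 was higher and 0 were lower. Of the other 3, with another or no accession, 0 were higher and 2 were lower. The 7 higher EST probe sets include 3 of Dnmt3a on a single EST, and the difference between the kinds was not tested for these genes. Over the whole array, 20.8% of measured EST probe sets were at least 1.5-fold higher and 15% lower, and their median log2 ratio was 0.07. Of measured RefSeq mRNA probe sets, 9.57% were at least 1.5-fold higher and 23.2% lower, and their median was -0.17. The ratios were also centred on the median of each kind of probe set. Dnmt3a, Dnmt3b, Tet1 and Tet2 then had ratios of 1.19, 1.001, 0.66 and 0.60, and all stayed at least 1.5-fold higher, while Dnmt1, at -0.62, joined Tet3 past 1.5-fold lower and Mbd1 turned to 0.04.

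**Figure D3:**
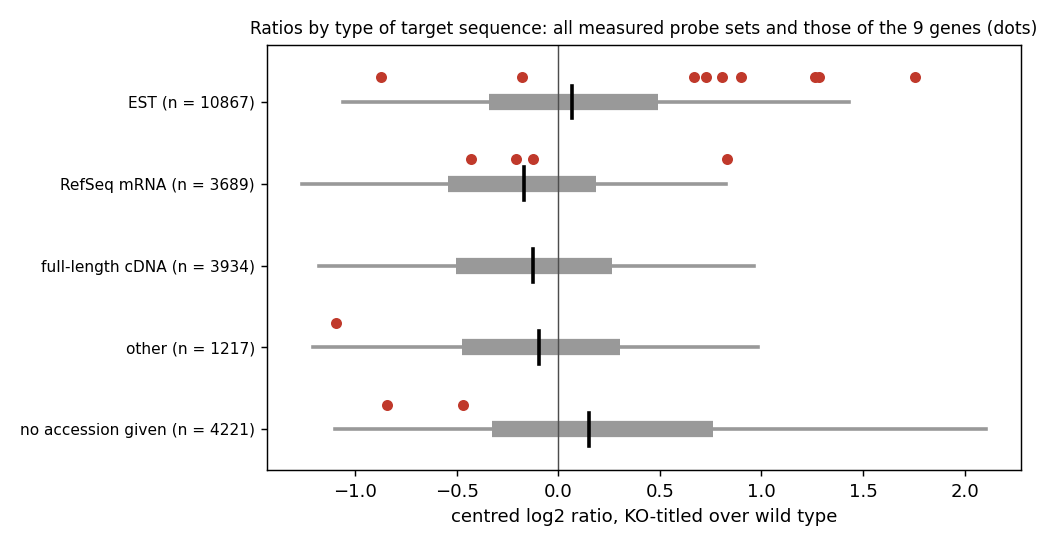
Centred log2 ratio of KO-titled over wild type by the kind of sequence each probe set is annotated to, for all measured probe sets (thin line, 5th to 95th percentile; thick bar, middle 50%; black mark, median) and for the 16 measured probe sets of the 9 genes (dots). The EST median is 0.07 and the RefSeq mRNA median is -0.17, and most dots in the EST row lie right of 0.

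Partners of the writers and other readers were mostly within 1.5-fold. Of 20 genes on this list 15 were measured, of which 1 was at least 1.5-fold higher and 2 lower, and the median log2 ratio was -0.01. Hells, a chromatin remodeller needed for normal DNA methylation, was highest at 0.96, with 259.3 units in the KO pool and 131.9 units in the WT pool. Next came the CpG-binding Cxxc1 at 0.52 and the methyl-CpG binding domain gene Mbd6 at 0.48. The lowest were Zbtb38, a zinc finger reader of methylated DNA, at -0.68, Mbd3, a relative of Mbd2, at -0.64, and the Dnmt1 partner Dmap1 at -0.57. Uhrf1, which guides Dnmt1, had 27.8 units in the KO pool and 52.9 units in the WT pool, and Dnmt3l, the catalytically inactive partner of the de novo enzymes, 5.1 units in the KO pool and 8.1 units in the WT pool. Both were under the floor in both pools.

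Genes of the repair steps downstream of Tet were measured for 11 of 17, with a median of -0.04; 1 was past 1.5-fold upward and 1 downward. Ung, a uracil glycosylase, stood just past 1.5-fold at 0.59, followed by the ligase gene Lig3 at 0.51, with another probe set at -0.47, and the glycosylase gene Neil1 at 0.41. The stress-induced Gadd45a was lowest at -0.83, then Gadd45b at -0.40 and the cytidine deaminase gene Apobec1 at -0.39.

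Corepressors that methyl-DNA readers recruit went both ways. All 14 genes with a probe set, of 16 listed, were measured, with a median of 0.10. Of the 14, 2 were at least 1.5-fold higher and 5 lower, against 12.5% and 18.2% of all measured genes. The lower ones were the scaffold gene Sin3a at -0.80, the remodeller gene Chd3 at -0.74 the histone deacetylase genes Hdac2 at -0.69 and Hdac1 at -0.67, and the deacetylase complex gene Mta3 at -0.62. Hdac2 had 1484.2 units in the KO pool and 2371.3 units in the WT pool. Atf7ip, a partner of the H3K9 methyltransferase Setdb1, was highest at 0.66, then Mta1 and Gatad2b, also of the deacetylase complex, at 0.65 and 0.52. The other measured probe set of Atf7ip had -0.62, and those of Gatad2b ran from -0.22 to 1.53. Among the lower genes, Sin3a and Mta3 had other probe sets up to -0.16 and -0.18, within 1.5-fold. The other measured Hdac2 probe set had -0.71.

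Methyl donor genes differed little between the pools. Of 15 listed 7 were measured, and Pemt alone was past 1.5-fold, while the median was -0.01. Mat2b, the regulatory subunit of the brain's S-adenosylmethionine synthetase, had 2913.8 units in the KO pool and 2919.7 units in the WT pool. Ahcy, which clears the S-adenosylhomocysteine left by every methyltransferase, had a ratio of -0.14. The outermost were Pemt, a phospholipid methyltransferase gene, at 0.67 and Gamt, the guanidinoacetate methyltransferase gene, at -0.33. Mtrr, which reactivates methionine synthase, and Ahcyl2, an Ahcy relative, had 0.31 and 0.18.

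**Figure D4:**
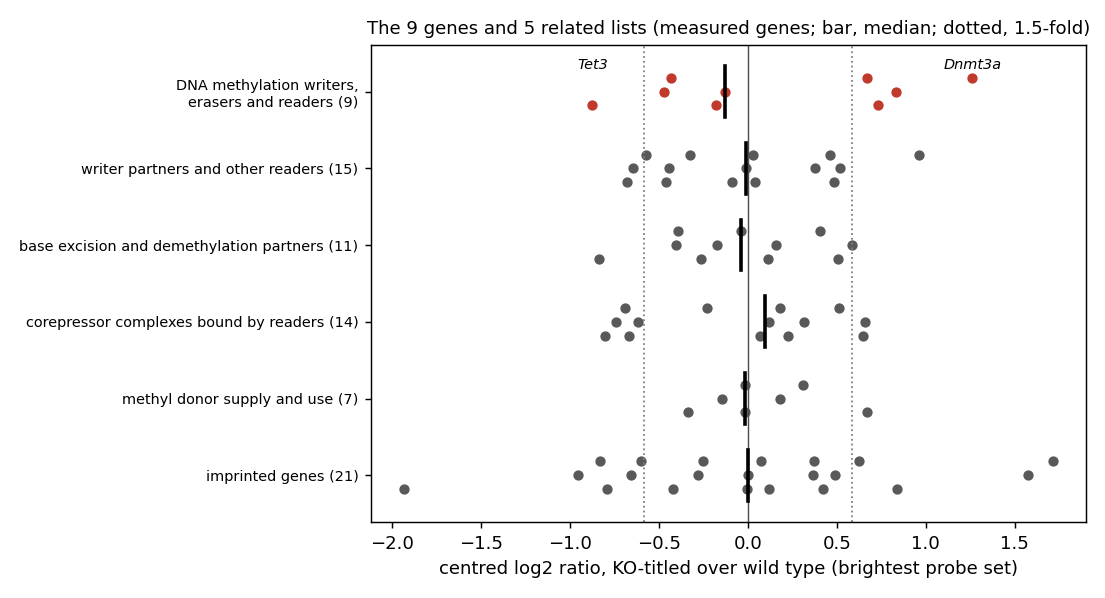
Centred log2 ratio of KO-titled over wild type, by brightest probe set, for the 9 genes (top row) and the measured genes of 5 related lists, with a bar at each median and 1.5-fold dotted. The top row runs from Tet3 at -0.87 to Dnmt3a at 1.26 with a median of -0.13, and the medians of the 5 lists lie between -0.04 and 0.10.

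Genes that DNA methylation is known to hold in check were also listed. Of 17 germline genes whose promoters are methylated in somatic tissue, 2 were measured on both arrays. Dazl, an RNA-binding germ cell gene, had 259.5 units in the KO pool and 94.5 units in the WT pool, with a ratio of 1.45, but its other probe set had -0.79. Brdt, a testis bromodomain gene, had a ratio of -0.79. The other 15 were under the floor on at least 1 array.

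Imprinted genes, whose parental alleles differ in methylation, spread widely around a median of 0.00. Of 21 measured, 4 were at least 1.5-fold higher and 6 lower, against 12.5% and 18.2% of all measured genes. Igf2r, the receptor that clears Igf2, was highest at 1.72, with 1423 units in the KO pool and 429.7 units in the WT pool, although its other probe set had 0.29. The noncoding Kcnq1ot1 had 1.57, and its other probe set 1.13, the adaptor gene Grb10 had 0.84 and the noncoding Meg3 had 0.62. Dlk1, a Notch-related ligand gene, was lowest at -1.93, with 75.4 units in the KO pool and 285.5 units in the WT pool, and its other probe set had 0.04. Nnat, a membrane protein gene of neurons, had -0.95 and Sgce, the epsilon-sarcoglycan gene, -0.83.

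Cell type markers differed between the pools as well, and their part in the ratios of the 9 genes was not tested. For microglia, 7 of the 10 markers that could be measured were past 1.5-fold downward in the KO pool and 1 upward, and their signals summed to 11301 units in the KO pool and 13715 units in the WT pool. Csf1r, the growth factor receptor gene of microglia, made up most of the KO sum, and the other 9 summed to 3471 units in the KO pool and 7325 units in the WT pool. They ranged from Fcrls at -2.04 to Cx3cr1 at 1.97. Of 7 astrocyte markers 4 were lower and 0 higher by brightest probe set. They ran from S100b at -1.23, with Gfap, Aqp4 and Slc1a3 at -1.23, -1.13 and -0.70, to Slc1a2 at 0.15. Their sums were 45790 units in the KO pool and 49539 units in the WT pool. Over all measured probe sets Aqp4 ran from -1.33 to 1.60 and Slc1a3 from -1.13 to 0.34. Gja1 ran from -0.55 to 1.66 and Slc1a2 from -0.33 to 3.88, whereas the measured Gfap and S100b probe sets were all below 0. By brightest probe set, 1 of 8 neuron markers was lower, Nefl at -1.78, and 0 were higher, with Slc17a7 highest at 0.20. The neuron marker sums were 87591 units in the KO pool and 100535 units in the WT pool. Over all measured probe sets Syt1 ran from -0.42 to 2.44 and Gad2 from 0.06 to 2.01. Gad1 ran from -0.35 to 0.17, and the measured Nefl probe sets were all below 0.

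Markers of oligodendrocytes, their precursors, endothelium and dividing cells lay mostly within 1.5-fold, as did most measured genes. Of 5 oligodendrocyte markers 1 was lower, with Mobp at -0.76 and Mag at 0.17 at the ends, and of 5 precursor markers 1 was higher, with Cspg4 at 0.61 and Olig1 at -0.26. All 4 measured endothelial markers were within 1.5-fold, from Tek at -0.31 to Flt1 at 0.53. Dividing cells, in which Dnmt1 is usually most abundant, had 1 of 5 measured markers higher (Ccna2 at 0.65) and 1 lower (Top2a at -0.79), and Mki67 had 4.2 units in the KO pool and 90.7 units in the WT pool. Of the anterior pituitary markers, Gh, Pomc and Tshb were measured, with ratios of -6.87, -3.00 and -0.31. Prl, Cga and Lhb reached the floor only in WT, and were lower in the KO pool by at least 36.9-fold, 37.1-fold and 2.88-fold. Fshb was under the floor in both.

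**Figure D5:**
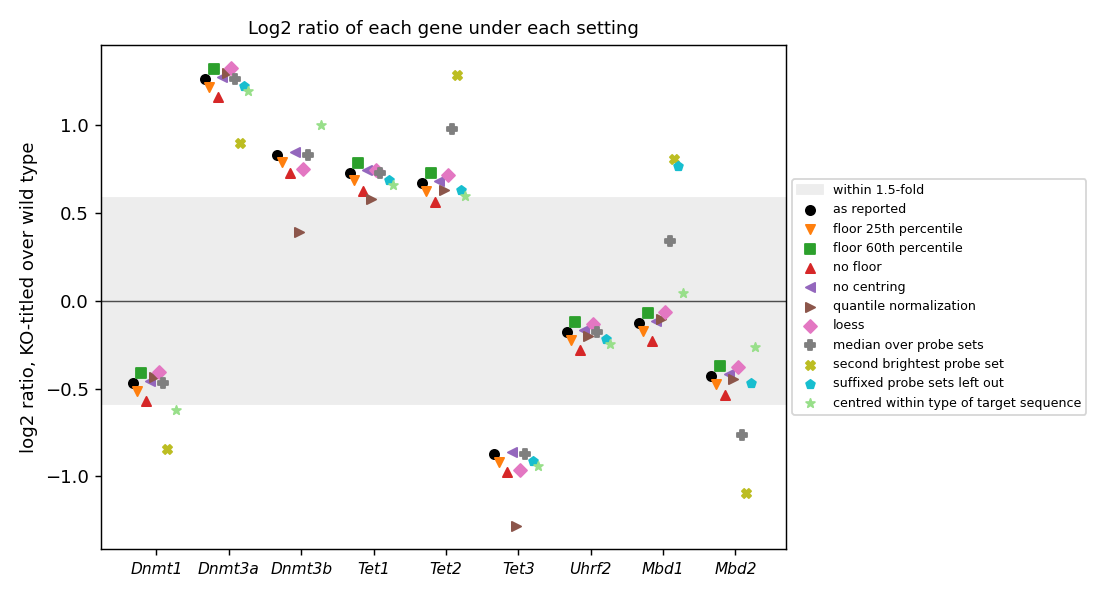
Log2 ratio of KO-titled over wild type for each of the 9 genes as reported (black) and under 10 other settings, with the range within 1.5-fold shaded. Dnmt3a stays between 0.90 and 1.33 and Tet3 between -1.28 and -0.86, whereas Mbd1 lies on both sides of 0.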

How the data were processed

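The deposited table holds 1 linear intensity for every probe set on each array. Per the labels' protocols, RNA was extracted with Trizol, and 5 micrograms of it went into the biotin-labelled cRNA. The submitters' processing notes name GCOS, the Affymetrix software; no version, algorithm or detection call is given. The mean of each array after trimming 2% at either end was 500.0, so the authors' values had been scaled to a common mean.

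A floor replaced detection calls: the 40th percentile of the 45037 non-control probe sets over both arrays. Log2 ratios were centred by 0.01, the median of the 23928 measured probe sets. The probe set brightest by mean log2 signal stood for its gene. Where only 1 array reached the floor, signal over floor gave a lower bound. Names came from the platform annotation, and 34741 of 34945 single-symbol probe sets matched the RefSeq table of GRCm38.p6 by gene identifier. Target sequences were classed by the letters of their accessions. All 9 members had probe sets, and promoter windows were used for 7 of them. With 1 array a group, the number of arrays limits precision, and no p-value was calculated.

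The rule for named genes took all members, up to 3 genes at either end of each related list, the ends of each marker list and every pituitary marker. Uhrf1, Dnmt3l, Snap25, Hdac1, Mta3, Meg3, Gfap, Aqp4, Slc1a3 and Mki67 were added outside it, with values known. Members and lists were chosen with earlier results of these data known. The calculations were tested on simulated data with 200 changed genes. Python 3.11.15, numpy 2.4.6, pandas 2.3.3, statsmodels 0.14.6 and matplotlib 3.10.9 were used. Alternatives covered the floor, the scaling and the choice of probe sets.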

Additional observations from a re-analysis of the deposited data

How the results depend on the processing

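Each value was recomputed under 10 other settings, 9 planned and 1, centring within the type of target sequence, chosen after seeing the data. In all settings that gave a value, Dnmt3a (0.90 to 1.33), Dnmt3b (0.39 to 1.001), Tet1 (0.58 to 0.79) and Tet2 (0.56 to 1.29) kept ratios above 0, and Dnmt1 (-0.84 to -0.40), Tet3 (-1.28 to -0.86), Uhrf2 (-0.28 to -0.12) and Mbd2 (-1.09 to -0.26) ratios below 0. Mbd1 ran from -0.23 to 0.80 and was above 0 in 4 of 10 settings. Genes at least 1.5-fold higher numbered 2 with quantile normalization, where Dnmt3b and Tet1 dropped within 1.5-fold, against 4 as reported. Genes at least 1.5-fold lower numbered 2 by the median over probe sets, by second brightest probe sets and with centring within the type of target sequence, against 1 as reported. They numbered 0 with a floor at the 60th percentile, where Tet3 and Dnmt3b were no longer measured. The median over the genes, -0.13 as reported, was 0.34 by the median over probe sets, 0.04 with centring within the type of target sequence, 0.80 by second brightest probe sets, which left 5 genes, and 0.63 without suffixed probe sets, which left 7. Without a floor the array-wide counts were 4947 genes at least 1.5-fold lower and 3158 higher, against 2234 and 1525 with it. The number of genes was 18193 without a floor and 12244 with it, and the shares were 27.2% lower and 17.4% higher, against 18.2% and 12.5%. No paired analysis was possible because each genotype has 1 array. Leaving out an array leaves no comparison. Dnmt3b and Tet3 have 1 signal each within a few units of the floor, which limits what their ratios can show.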

Other observations

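Several genes of the methylation lists had further probe sets with log2 ratios of KO over WT well above that of the brightest one; these genes were picked after their values had been seen. Usp7, a deubiquitinase that stabilises Dnmt1 and Uhrf1, had a log2 ratio of 0.03 by its brightest probe set, while its 6 measured probe sets reached 2.85. Zbtb4, a zinc finger reader of methylated DNA, had -0.09 and reached 1.71 over 3 measured probe sets. Ogt, a glycosyltransferase that binds Tet proteins, had 0.46 and reached 1.19 over 4. The imprinted genes Meg3 and Impact had 0.62 and 0.37 and reached 2.58 and 2.51. Other genes had probe sets well below their brightest one: Apex1, a repair endonuclease gene, had 0.16 and reached down to -0.85, Peg3, an imprinted zinc finger gene, had -0.25 with other probe sets at -1.14 and 2.72, and Mbd2 had -0.43 and -1.09. The cause of these splits was not tested.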
